A study of Macaca fascicularis with 21 samples.

Results

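Late amnion was compared with early amnion in embryos of the cynomolgus monkey (Macaca fascicularis) grown in culture. Cells were chosen by the deposited annotation. Late amnion was made of the cells labelled L-AM1 or L-AM2 in day 16 embryos, and early amnion of the cells labelled E-AM in embryos of days 12 to 14 that held at least 3 such cells. This gave 65 of the 1453 cells in the series, of which 42 were late and 23 early. Of 82 amnion cells in all, 17 stood outside the comparison. The series followed 21 embryos from day 11 to day 17, each with 22 to 88 sequenced cells.

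The late group held day 16 embryos 1 to 4, with 12, 11, 11 and 8 amnion cells. The early group held day 12 embryos 1 and 2, day 13 embryo 3 and day 14 embryos 2 and 4, with 6, 7, 3, 3 and 4 cells. No label gives an allele, a drug or a strain for either group. All 9 embryos were blastocysts freed of the zona pellucida, each cultured alone on the basement membrane gel Matrigel while the serum in the medium was stepped up over the days. The tissue at the implantation site was cut out, extra-embryonic cells were removed by eye, and the cells left after digestion were picked by hand, so the picked cells may not represent a whole amnion. The day of day 12 embryo 1 stands under a culture stage label and that of the other 8 embryos under a developmental stage label. The labels do not say whether these stages share a day 0. Values per embryo are listed below in the order in which the embryos are named here.

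The amnion is the thin epithelium that closes over the embryo and holds the amniotic fluid. In primates it arises around implantation from epiblast cells on the side that faces the trophoblast, before the primitive streak forms, and BMP signals are known to favour this fate. AP-2 transcription factors, ISL1 and simple-epithelium keratins are among the genes known for it, and its cells later flatten and lay down a basement membrane.

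Counts of the cells of each embryo were added up, and the embryo was the replicate. Late sums held 1840580, 1262760, 1416843 and 450226 counts. Early sums held 292659, 233718, 279906, 122318 and 1050327 counts, so the early side was thinner apart from day 14 embryo 4. In day 13 embryo 3, 86.4% of the counts came from 1 cell. The median count per cell, averaged over embryos, was 68332 ± 33230 in late amnion and 74544 ± 111853 in early amnion (SD, n = 4 and 5; exact 2-sided permutation p = 0.921). When each cell was thinned to 5000 counts, late cells showed 2210 ± 189 genes and early cells 2460 ± 73.3 (SD, n = 4 and 5; exact p = 0.0317, 0.0952 after Benjamini-Hochberg adjustment over 3 depth measures). With 4 against 5 embryos the smallest p such a test can give is 0.0159. Levels are given as counts scaled to a common total (CPM), from sums scaled with edgeR's TMM factors unless stated otherwise.

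The 3 genes that mark these cells did different things. GABRP, a subunit of a GABA-A receptor, rose. It stood at 87.9, 469.7, 144 and 612 CPM in late amnion and at 40.03, 4.32, 3.67, 60.0 and 26.2 CPM in early amnion. Every late embryo was above every early one, and the log2 change was 3.70 ± 0.70 (SE; edgeR quasi-likelihood test with Benjamini-Hochberg adjustment over all genes, adjusted p = 0.0042). A count of GABRP was found in 27 of 42 late cells and in 6 of 23 early cells. At 5000 counts per cell these became 21 of 42 late cells and 1 of 23 early cells, while epiblast cells thinned alike showed it in 1.98% at day 16 and in 0% at days 12 to 14. Median totals per cell were 66898 counts in late amnion, 29258 in early amnion, 89706 in late epiblast and 58977 in early epiblast. In sums over picked cells, more positive cells and more RNA per positive cell cannot be told apart. The call for GABRP did not hold with at least 5 cells per embryo (log2 change 3.88, edgeR adjusted p = 0.0943) or with day 14 embryos alone as the early group (3.08, edgeR adjusted p = 0.092). The first of these settings kept only day 12 embryos 1 and 2 as early, and the second only day 14 embryos 2 and 4.

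ISL1, a LIM homeobox transcription factor, stood at 134, 179, 145 and 95.7 CPM in late amnion and at 80.1, 25.9, 51.4, 94.3 and 111 CPM in early amnion. The groups overlapped, and the log2 difference of 0.93 ± 0.52 did not pass (edgeR adjusted p = 0.461). TFAP2A, an AP-2 transcription factor, stood at 145, 337, 95.1 and 24.7 CPM in late amnion and at 437, 181, 463, 411 and 87.4 CPM in early amnion. The late embryos alone spanned 24.7 to 337 CPM, and the log2 difference of -1.04 ± 0.58 did not pass either (edgeR adjusted p = 0.459). Set against other annotated types without TMM scaling, ISL1 and GABRP were highest in amnion at both stages. ISL1 averaged 123 ± 40.1 CPM in late amnion against at most 12.0 ± 19.1 in any other late type, which was the germ cells (SD, n = 4 and 3). TFAP2A averaged 138 ± 125 CPM in late amnion, with germ cells next at 79.5 ± 72.4 (SD, n = 4 and 3). In early amnion it averaged 304 ± 161 CPM, close to the trophoblast at 289.6 ± 106 (SD, n = 5 and 11), where it is also known to be expressed. Over a list of 24 amnion genes the summed level was 3694 ± 925 CPM in late amnion and 3531 ± 1366 CPM in early amnion (SD, n = 4 and 5; exact p = 0.762).

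**Figure D1:**
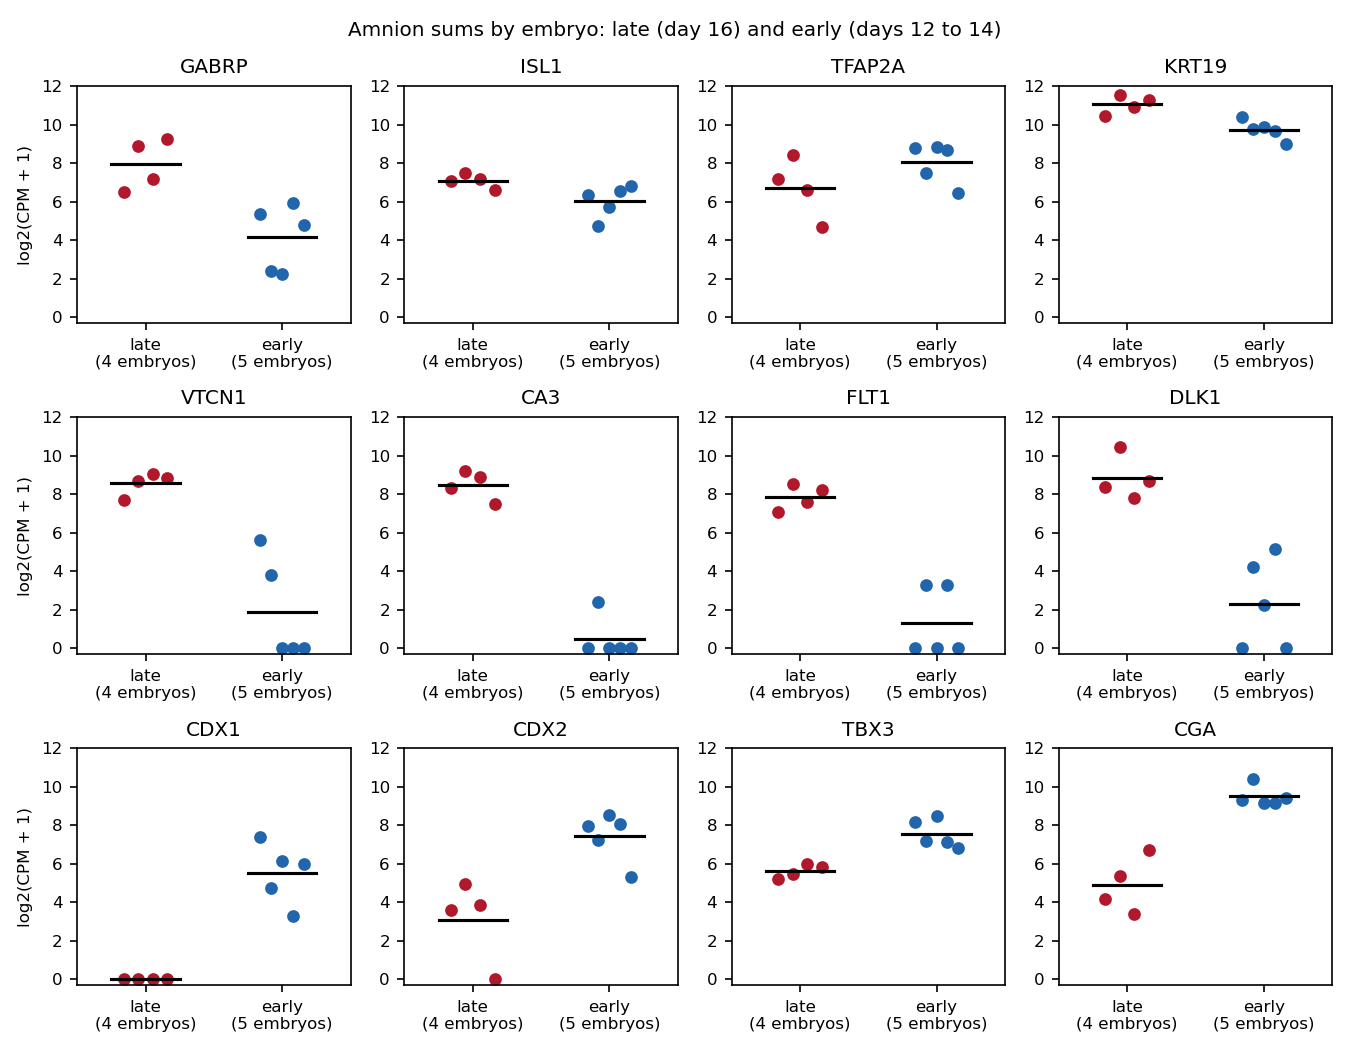
Level of 12 genes in each embryo, as log2(CPM + 1) on the vertical axis, with late amnion (day 16, 4 embryos) left of early amnion (days 12 to 14, 5 embryos); points are embryos and bars are means. GABRP, VTCN1, CA3, FLT1 and DLK1 lie higher in all late embryos, CDX1, CDX2, TBX3 and CGA lie lower in all of them, and ISL1 and TFAP2A overlap.

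Of 6753 genes with enough counts to test, 153 changed between late and early amnion at an edgeR adjusted p under 0.05, which is 2.27%. More genes rose than fell, with 127 higher in late amnion (1.88%) and 26 lower (0.385%). In 460 genes (6.81%) the embryos of the 2 stages did not overlap, 299 higher (4.43%) and 161 lower (2.38%). At an unadjusted p under 0.05 there were 903 (13.4%). The median log2 change over all tested genes was 0.03, and 3474 of the 6753 had a positive change. DESeq2 with its own size factors and filter called 391 genes (3.36%), 267 higher and 124 lower, among them 148 of the 151 edgeR calls that it tested. Leaving out day 14 embryo 4 reduced the genes called lower to 17, and no other omission of an embryo moved a count by more than 1.5 times. Of the 48 named genes that were called, 26 lost the call with at least 5 cells per embryo, and 19 of 46 tested lost it with day 14 embryos alone as the early group. The first setting kept only day 12 embryos 1 and 2 as early, and the second only day 14 embryos 2 and 4. Effects of cell number, fewer embryos and early day cannot be told apart in these losses. IGFBP5, NPPA, DCN and LPCAT2 lost it under both settings, as did GABRP and CDX2. So did COL1A2, COL5A1, COL6A1, COL6A2, FOS, GATA2, MEIS2 and TBX3. Calls below are edgeR's unless DESeq2 is named.

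**Figure D2:**
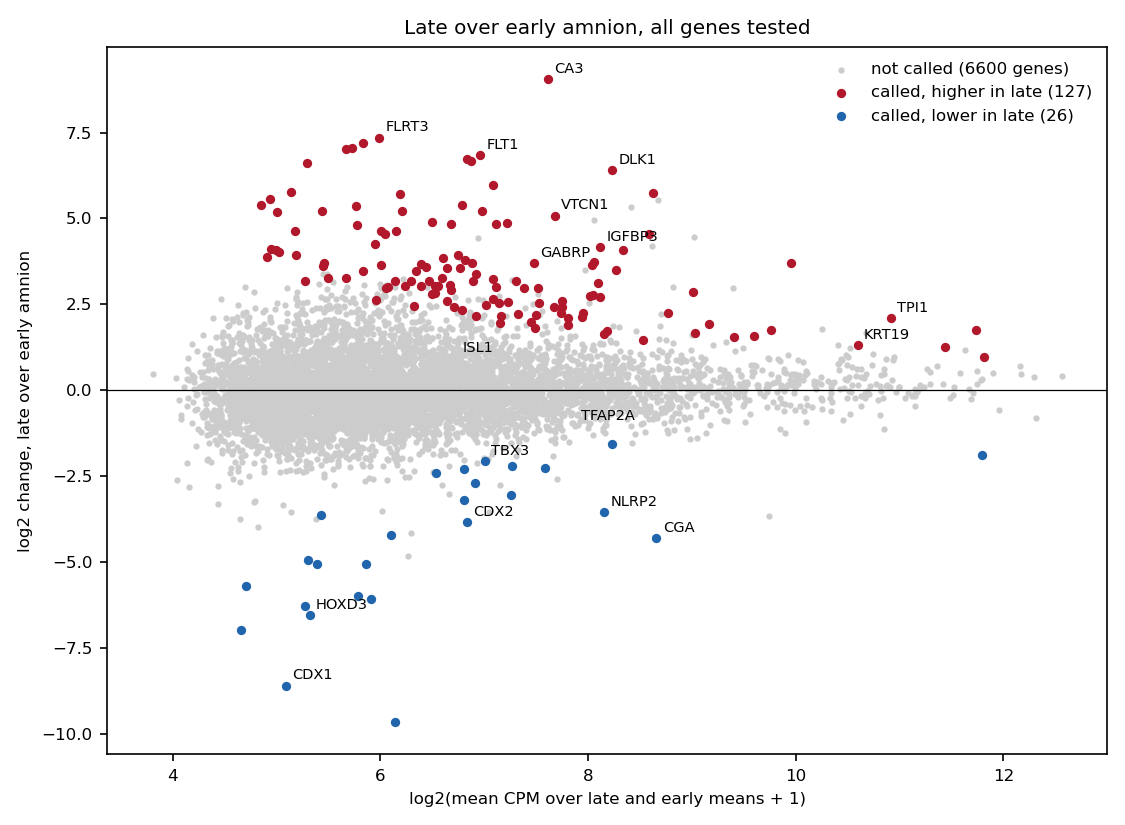
Log2 change of late over early amnion against the log2 of the mean CPM for all 6753 genes tested, with the 127 genes called higher in red, the 26 called lower in blue and all others in grey. Rises outnumber falls, and the most extreme fitted changes belong to genes with 3 or fewer counts in a stage, whose fitted value depends on the prior count.

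Among the 24 amnion genes, 20 could be tested. IGFBP3, VTCN1, GABRP and MEIS1 rose, CDX2, GATA2 and TBX3 fell, and 13 were not called. Over all genes tested, 1.88% were called higher and 0.385% lower. The median log2 change of the 20 was -0.40 against 0.03 over all genes, so the list did not move as a whole. VTCN1, which codes for the immune checkpoint protein B7-H4, stood at 205, 402, 524 and 457 CPM in late amnion and at 47.3, 12.9, 0, 0 and 0 CPM in early amnion. All late embryos were higher, by a log2 change of 5.08 ± 0.91 (edgeR adjusted p = 0.00474). In epiblast of the embryos with both types VTCN1 averaged 169 ± 57.4 CPM late and 18.5 ± 13.7 CPM early (SD, n = 4 each). A count was found in 35 of 42 late and 2 of 23 early amnion cells. In epiblast it was found in 84 of 101 late and 77 of 151 early cells. The difference in log2 change from epiblast, 2.15, was not called (edgeR adjusted p = 0.927). IGFBP3, a secreted binder of insulin-like growth factors (IGFs), stood at 369, 923, 511 and 296 CPM in late amnion and at 25.5, 34.5, 40.4, 8.57 and 30.1 CPM in early amnion. The gap between the groups was wide and even, at 4.17 ± 0.48 on the log2 scale (edgeR adjusted p = 4.31e-05). MEIS1, a homeobox cofactor of HOX proteins, stood at 53.8, 148, 120.1 and 296 CPM in late amnion and at 21.8, 17.3, 7.34, 0 and 9.71 CPM in early amnion (log2 change 3.68 ± 0.73, edgeR adjusted p = 0.00532). Its relative MEIS2 rose too, to 447 ± 405 CPM in late amnion against 67.8 ± 40.9 CPM in early amnion (SD, n = 4 and 5). The MEIS2 groups overlapped, and without day 16 embryo 4, which had 1025 CPM, it lost its call (edgeR adjusted p = 0.0118 with all embryos and 0.068 without that one).

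The 3 amnion-list genes that fell are transcription factors. CDX2, a caudal homeobox factor also known from the trophoblast lineage, stood at 11.0, 30.0, 13.3 and 0 CPM in late amnion and at 244, 147, 371, 266 and 38.8 CPM in early amnion. The groups did not overlap, although day 14 embryo 4 came close to the late range (log2 change -3.85 ± 0.75, edgeR adjusted p = 0.00503). The CDX2 call did not hold with at least 5 cells per embryo or with day 14 embryos alone as the early group (edgeR adjusted p = 0.0606 and 0.208). Among types of days 12 to 14, amnion and not trophoblast held the most CDX2, at 205 ± 121 CPM in early amnion and 1.94 ± 2.62 in early trophoblast (without TMM scaling; SD, n = 5 and 11). GATA2 stood at 1.16, 14.6, 5.46 and 3.09 CPM in late amnion and at 72.8, 104, 40.4, 42.9 and 130.1 CPM in early amnion. It was lower in all late embryos (log2 change -3.63 ± 0.85, edgeR adjusted p = 0.0219), but leaving out day 16 embryo 1 or 3, day 12 embryo 2 or day 14 embryo 4 ended the call for GATA2, at edgeR adjusted p of 0.0741, 0.086, 0.0681 and 0.0617. Among early types GATA2 was highest in trophoblast, at 565 ± 280 CPM (without TMM scaling, SD, n = 11). In epiblast it averaged 2.04 ± 1.03 CPM late and 53.2 ± 36.2 CPM early (SD, n = 4 and 9). The difference in log2 change between amnion and epiblast, 0.37, was not called (edgeR adjusted p = 0.984). The part of trophoblast RNA in the fall of GATA2 was not tested. TBX3, a T-box repressor, stood at 36.4, 42.9, 61.6 and 55.6 CPM in late amnion and at 287, 142, 349, 137 and 113 CPM in early amnion. Every late embryo was below every early one (log2 change -2.07 ± 0.51, edgeR adjusted p = 0.0296). The TBX3 call was lost without any of day 16 embryos 1, 2 and 3, day 12 embryo 1 or day 13 embryo 3, with edgeR adjusted p between 0.0692 and 0.0996.

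The largest rises were in genes of varied roles that early amnion hardly held. CA3, carbonic anhydrase III, stood at 312, 594, 475 and 176 CPM in late amnion, and in early amnion at 4.32 CPM in day 12 embryo 2 and at 0 in the other 4 embryos. A single count stood behind the early value against 1899 late counts, a ratio of summed counts of 756 (95% counting interval 136 to 29879; edgeR adjusted p = 2.46e-06). Among late types CA3 was highest in amnion, at 350 ± 182 CPM, with gastrulating cells next at 40.8 ± 64.0 CPM (without TMM scaling, SD, n = 4 each). In epiblast CA3 averaged 9.46 ± 8.67 CPM late and 0.222 ± 0.515 CPM early (SD, n = 4 and 9). No difference in its change from that in epiblast or extraembryonic mesenchyme was called (edgeR adjusted p = 0.752 and 0.978). FLT1, a receptor for vascular endothelial growth factors, stood at 134, 362, 189 and 290.3 CPM in late amnion and at 0, 8.63, 0, 8.57 and 0 CPM in early amnion. That is 990 late counts against 3 early ones, a ratio of 131 (interval 44.8 to 638; edgeR adjusted p = 0.000144). At 5000 counts per cell FLT1 was found in 24 of 42 late cells and in 0 of 23 early cells, and in epiblast cells in 9.90% at day 16 and 9.93% at days 12 to 14. Intervals here cover counting error alone.

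DLK1 and DLK2 code for related membrane proteins that are known to modulate Notch signalling. DLK1 stood at 326, 1405, 219 and 405 CPM in late amnion and at 0, 17.3, 3.67, 34.3 and 0 CPM in early amnion (log2 change 6.40 ± 0.99, edgeR adjusted p = 0.00222). Its call was lost with day 14 embryos alone as the early group. DLK2 stood at 68.8, 330.0, 259.6 and 232 CPM in late amnion and at 7.28, 0, 0, 8.57 and 0 CPM in early amnion. Both were higher in all late embryos, DLK2 at 121 times the summed early counts (interval 41.3 to 588; edgeR adjusted p = 0.000214). RGS5, a regulator of G protein signalling, stood at 139, 300.0, 136 and 352 CPM in late amnion and at 4.86 CPM in day 14 embryo 4 alone among the early embryos (log2 change 6.68 ± 0.80, edgeR adjusted p = 6.01e-05). Without day 14 embryo 4 no early count of RGS5 was left.

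UNC5C, a netrin receptor, and FLRT3, a cell adhesion protein that can bind UNC5 receptors, had 463 and 614 late counts and a single early count each. Their ratios of summed counts were 184 (interval 32.9 to 7297; edgeR adjusted p = 0.000823) and 244 (interval 43.7 to 9671; edgeR adjusted p = 0.000352). SPAG4, a protein of the nuclear envelope, and ZNF521, a zinc finger factor, had the same pattern, at 195 (interval 34.9 to 7737) and 102 (interval 18.2 to 4057) times the early counts. SPAG4 was also higher late in epiblast, at 42.8 ± 13.2 CPM against 3.22 ± 4.61 CPM early (without TMM scaling, SD, n = 4 and 9). Among late types visceral and yolk sac endoderm held the most SPAG4, at 149 ± 53.5 CPM (SD, n = 4). Its change in amnion was not called different from that in epiblast (edgeR adjusted p = 0.734). LPCAT2, an enzyme that remodels phospholipids, stood at 26.6 to 167 CPM in late amnion and at 0 to 3.67 CPM in early amnion, 40.4 times by summed counts (interval 11.0 to 336). These 5 genes did not overlap between the groups, and all were called by edgeR (adjusted p from 0.000352 to 0.00503).

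Binding proteins of the IGF axis rose as a group of 3. IGFBP5 stood at 279, 1807, 153 and 849 CPM in late amnion and at 21.8, 30.2, 0, 17.1 and 8.74 CPM in early amnion (log2 change 5.73 ± 0.80, edgeR adjusted p = 0.000823). IGFBP2 stood at 192, 205, 129 and 624 CPM in late amnion and at 10.9, 8.63, 0, 8.57 and 15.5 CPM in early amnion (log2 change 4.86 ± 0.68, edgeR adjusted p = 0.000214). In epiblast of the embryos with both types it averaged 629 ± 161 CPM late and 34.4 ± 16.7 CPM early (SD, n = 4 each). In extraembryonic mesenchyme it averaged 295 ± 87.8 CPM late and 1.93 ± 1.81 CPM early (SD, n = 4 each). The change in amnion differed from these by -0.05 and -2.43 on the log2 scale, without a call (edgeR adjusted p = 0.997 and 0.473). By label IGFBP2 averaged 125 ± 90.9 CPM in L-AM2 and 290 ± 266 CPM in L-AM1 cells (without TMM scaling, SD, n = 4 each). IGFBP3 and IGFBP5 went the other way. They averaged 641 ± 349 and 989 ± 797 CPM in L-AM2, and 146 ± 130 and 63.5 ± 93.8 CPM in L-AM1. These 3 genes were the calls among 12 tested genes of the IGF list, none lower, against 1.88% called higher over all genes. The median log2 change of the 12 was 1.32. The ligand IGF2 averaged 156 ± 82.1 CPM in late amnion and 17.0 ± 19.7 CPM in early amnion (SD, n = 4 and 5). The receptor IGF1R stood at 138 to 205 CPM in late amnion and at 11.0 to 78.7 CPM in early amnion. Neither overlapped between the stages, and neither passed by edgeR (adjusted p = 0.0515 and 0.0841), while DESeq2 called both. Among 10 tested imprinted genes, 9 had a positive log2 change with a median of 2.09, and DLK1 was the only call by edgeR. DESeq2 called DLK1, IGF2, MEST, NNAT and PHLDA2, 4 higher and 1 lower.

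The falls included homeobox genes of the caudal and HOX families, which are known to pattern the trunk and tail. CDX1 had no count in late amnion and stood at 164, 25.9, 69.8, 8.57 and 63.1 CPM in early amnion. Against a floor of 3 counts over the late group this was at least 114-fold lower (edgeR adjusted p = 0.00131). CDX1 counts were found in 0 of 42 late cells, and in 11 of 23 early cells. For cells with a count, 0 of 42 allows a share of up to 8.41% (exact 95% interval, counting error alone), which does not limit the share of cells that express the gene. HOXD3 stood at 0.578, 1.71, 0 and 0 CPM in late amnion and at 189, 77.7, 47.7, 17.1 and 54.4 CPM in early amnion. With 3 late counts, early amnion held 118 times the late level by summed counts (interval 39.6 to 579; edgeR adjusted p = 0.00125). The HOXD3 call was lost with day 14 embryos alone as the early group. HOXA13 stood at 0.578, 4.29, 1.56 and 3.09 CPM in late amnion and at 58.2, 60.4, 118, 111 and 49.5 CPM in early amnion (log2 change -5.05 ± 0.90, edgeR adjusted p = 0.0024).

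Of 37 genes on the HOX and caudal list, 10 could be tested. CDX1, CDX2, HOXD3 and HOXA13 fell, and MEIS1 and MEIS2, which are cofactors on the list and not HOX genes, rose. Over all genes tested, 0.385% were called lower and 1.88% higher. The median log2 change of the 10 was -3.18, also with CDX1 set to its bound. HOXA10 averaged 18.2 ± 9.68 CPM in late amnion and 114 ± 67.8 CPM in early amnion, and HOXA9 5.22 ± 7.27 and 76.2 ± 56.0 CPM (late and early; SD, n = 4 and 5). Neither passed by edgeR (adjusted p = 0.0515 and 0.0859), and DESeq2 called both. The sources do not state how reads shared by near-identical HOX sequences were counted.

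Genes of the maternal complex of the egg were also lower in late amnion. NLRP2 stood at 46.3, 54.0, 53.0 and 21.6 CPM in late amnion and at 928, 764, 162, 437 and 326 CPM in early amnion (log2 change -3.54 ± 0.51, edgeR adjusted p = 0.000352). OOEP had a single count in late amnion and stood at 80.1, 64.7, 55.1, 34.3 and 6.80 CPM in early amnion, 158 times the late level by summed counts (interval 27.4 to 6348; edgeR adjusted p = 0.00269). Neither gene overlapped between the stages. With TBX3 they were the 3 calls among 7 tested genes of the naive and maternal list, whose 7 log2 changes were all negative with a median of -2.74. Over all genes tested, 0.385% were called lower. NLRP2 had the same order in epiblast, with 60.5 ± 16.7 CPM late and 506 ± 249 CPM early (without TMM scaling; SD, n = 4 and 9).

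NPPA, SNX10, DPYSL3 and CALCB were also among the largest falls. NPPA, which codes for atrial natriuretic peptide, stood at 0.578, 0.857, 0 and 3.09 CPM in late amnion and at 61.9, 30.2, 62.4, 60.0 and 30.1 CPM in early amnion, a 66.1 times higher early level by summed counts (interval 21.8 to 328; edgeR adjusted p = 0.00447). CALCB, a calcitonin gene-related peptide, stood at 0 to 2.89 CPM in late amnion and at 3.67 to 404 CPM in early amnion, where day 14 embryo 4 was far above the rest (log2 change -6.06 ± 1.13, edgeR adjusted p = 0.00381). Both genes were highest in trophoblast among early types, at 1419 ± 1039 CPM for NPPA and 1760 ± 1919 CPM for CALCB (without TMM scaling; SD, n = 11). In epiblast NPPA averaged 0.521 ± 0.373 CPM late and 67.0 ± 37.4 CPM early, and CALCB 3.40 ± 1.90 CPM late and 138 ± 301 CPM early (SD, n = 4 and 9). In EXMC NPPA averaged 1.65 ± 3.01 CPM late and 30.7 ± 22.8 CPM early, and CALCB 3.33 ± 2.40 CPM late and 318 ± 854 CPM early (SD, n = 4 and 11). The part of trophoblast RNA in the falls of NPPA and CALCB was not tested. SNX10, a sorting nexin, averaged 21.1 ± 11.0 CPM in late amnion and 201 ± 104 CPM in early amnion (SD, n = 4 and 5; log2 change -3.19 ± 0.60, edgeR adjusted p = 0.00409). DPYSL3, a cytoskeletal protein of the collapsin response mediator family, averaged 32.1 ± 13.2 CPM in late amnion and 271 ± 120.3 CPM in early amnion (SD, n = 4 and 5; log2 change -3.06 ± 0.53, edgeR adjusted p = 0.0021). Neither overlapped between the stages.

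CGA, the shared alpha subunit of glycoprotein hormones and a trophoblast marker, was far lower in late amnion. It stood at 16.8, 39.4, 9.36 and 102 CPM in late amnion and at 640.5, 1359.6, 558, 574 and 689 CPM in early amnion (log2 change -4.30 ± 0.59, edgeR adjusted p = 0.000214). Other types showed the same order without TMM scaling. Epiblast held 113 ± 169 CPM late and 1457 ± 1038 CPM early (SD, n = 4 and 9), and extraembryonic mesenchyme (EXMC) held 76.7 ± 69.1 CPM late and 1256 ± 959 CPM early (SD, n = 4 and 11). Early trophoblast itself held 9981 ± 3230 CPM (SD, n = 11), and 151 of 151 early epiblast cells had a CGA count. All 11 trophoblast markers summed to 54.4 to 148 CPM in late amnion and to 591 to 1597 CPM in early amnion (log2 difference -3.20, exact p = 0.0159, 0.0635 after adjustment over 8 marker lists). Of the defining trophoblast markers, CCR7 and LHB were at 0 in late amnion and CYP19A1 in early amnion. GCM1, the trophoblast transcription factor, was at 0.78 to 3.09 CPM in late amnion and at 0 to 22.3 CPM in early amnion. The part of trophoblast RNA in these falls was not tested. Without the genes that another type held at 8 times the amnion level or more, among them CGA, 97 calls were left, 83 higher and 14 lower.

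Simple-epithelium keratins were abundant at both stages, and 1 of them rose. KRT19 stood at 1394, 3015, 1904 and 2486 CPM in late amnion and at 1346, 868, 944, 797 and 505 CPM in early amnion. Day 16 embryo 1 and day 12 embryo 1 almost met, with a log2 change of 1.30 ± 0.30 (edgeR adjusted p = 0.02). The KRT19 call was lost without day 16 embryo 2 (edgeR adjusted p = 0.0942), day 14 embryo 2 (0.0531) or day 14 embryo 4 (0.066), and DESeq2 gave an adjusted p of 0.0546. KRT18 averaged 1976 ± 800.4 CPM in late amnion and 2030.1 ± 456 CPM in early amnion, and KRT8 1866 ± 935 and 1717 ± 659.6 CPM (late and early; SD, n = 4 and 5). Their log2 differences of -0.04 ± 0.28 and 0.12 ± 0.35 were far from passing (edgeR adjusted p = 0.97 and 0.929). KRT19 was the only call by edgeR among 15 tested keratin and junction genes, whose median log2 change was 0.32. DESeq2 called 1 gene of the list, CLDN7, which was lower and had too few counts for the edgeR test. The adhesion protein EPCAM, the claudin CLDN6 and the desmosome protein DSP were not called (edgeR adjusted p = 0.603, 0.987 and 0.0715).

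Matrix genes rose in number. Of 28 tested genes of matrix and adhesion, 7 rose and none fell, while 1.88% of all genes tested rose and 0.385% fell. A positive log2 change was found in 25 of the 28 and in 3474 of all 6753, and the list's median was 1.71. COL3A1, a fibrillar collagen chain, stood at 165, 58.3, 433 and 176 CPM in late amnion and at 32.8, 21.6, 11.0, 0 and 7.77 CPM in early amnion (log2 change 3.78 ± 0.71, edgeR adjusted p = 0.00395). COL5A1 stood at 101, 178, 112 and 108 CPM in late amnion and at 18.2, 12.9, 22.0, 17.1 and 2.91 CPM in early amnion (log2 change 3.18 ± 0.70, edgeR adjusted p = 0.0139). VIM, the intermediate filament protein vimentin, stood at 227, 279, 580.0 and 213 CPM in late amnion and at 113, 30.2, 7.34, 17.1 and 33.0 CPM in early amnion (log2 change 2.98 ± 0.60, edgeR adjusted p = 0.00576). In all 3 the late embryos were above the early ones. COL4A5, a basement membrane collagen, stood at 26.02 to 98.8 CPM in late amnion and at 0 to 17.1 CPM in early amnion (log2 change 3.93 ± 1.00, edgeR adjusted p = 0.0373). COL1A2, COL6A1 and COL6A2 were called with log2 changes of 2.79 ± 0.68, 3.00 ± 0.76 and 3.25 ± 0.78 (edgeR adjusted p = 0.0293, 0.0359 and 0.0248). COL6A1 and COL6A2 overlapped between the stages. COL1A2 lost its call without day 16 embryo 3 or 4, day 12 embryo 1 or day 14 embryo 2 (edgeR adjusted p = 0.0999, 0.087, 0.0719 and 0.0543). COL6A1 lost its call without any embryo other than day 16 embryo 1 and day 12 embryo 1 (edgeR adjusted p from 0.0552 to 0.108), and COL6A2 without day 16 embryo 2 or 4, day 12 embryo 1, day 13 embryo 3 or day 14 embryo 4 (from 0.0608 to 0.189). Without day 16 embryo 3, COL3A1 and VIM were not called (edgeR adjusted p = 0.0621 and 0.0554), nor was COL5A1 without day 16 embryo 2 (0.0714). Fibronectin, FN1, averaged 1911 ± 381 CPM in late amnion and 947 ± 393 CPM in early amnion and was not called (SD, n = 4 and 5; edgeR adjusted p = 0.105).

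The matrix list overlaps the mesenchyme list, which holds markers of EXMC, the tissue that lies against the amnion. COL3A1 is on both, and the mesenchyme list also holds the collagens COL1A1 and COL6A3, so the lists are not independent. LUM and DCN, which code for small leucine-rich proteoglycans and are on the mesenchyme list, rose. LUM stood at 42.8, 109, 402 and 232 CPM in late amnion and at 7.28, 12.9, 11.0, 0 and 2.91 CPM in early amnion (log2 change 4.83 ± 0.78, edgeR adjusted p = 0.00102). DCN had 200 late counts and 2 early ones, 39.8 times by ratio (interval 10.9 to 331; edgeR adjusted p = 0.00525). Both were also higher late in epiblast of the embryos that held both types. There LUM averaged 64.7 ± 45.2 CPM late and 5.06 ± 4.61 CPM early, and DCN 35.1 ± 11.0 and 1.68 ± 1.82 CPM (SD, n = 4 each). No difference in change between amnion and epiblast was called for LUM, DCN or COL3A1 (edgeR adjusted p = 0.849, 0.851 and 0.621). All 12 mesenchyme markers summed to 394 to 1707 CPM in late amnion and to 106 to 313 CPM in early amnion, with no overlap (log2 difference 2.35, exact p = 0.0159, 0.0635 after adjustment over 8 lists). None of the 12 was at 0 in all embryos of a stage. The same list summed to 18395 CPM in late EXMC and 8296 CPM in early EXMC (means of 4 and 11 embryos). In day 16 epiblast it summed to 451 ± 235 CPM (without TMM scaling, SD, n = 4). The L-AM1 and L-AM2 sums of the list were 447 ± 226 and 1151 ± 1017 CPM. FOXF1, a mesenchymal transcription factor, stood at 0.578, 0.857, 7.80 and 74.1 CPM in late amnion and at 0.971 CPM in day 14 embryo 4 alone among early embryos. Summed markers of epiblast, gastrulating cells, germ cells, endoderm and ectoderm overlapped between the stages (exact p from 0.143 to 0.778). The part of mesenchymal RNA in the rise of matrix genes was not tested.

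Genes of glycolysis and of the response to low oxygen were higher in late amnion across most of the list. Of 26 tested, 7 rose and none fell, 13 were higher in every late embryo than in any early one, 23 had a positive log2 change, and the median was 1.24. Over all genes tested 1.88% rose, 4.43% were higher in every late embryo than in any early one, and 3474 of 6753 had a positive change. TPI1, triosephosphate isomerase, stood at 3457, 3787, 3272 and 2001 CPM in late amnion and at 659, 669, 719.8, 1089 and 512 CPM in early amnion (log2 change 2.11 ± 0.28, edgeR adjusted p = 0.000181). PGK1, phosphoglycerate kinase, stood at 1684, 1147, 1466 and 1041 CPM in late amnion and at 142, 376, 485, 523 and 455 CPM in early amnion (log2 change 1.76 ± 0.34, edgeR adjusted p = 0.00503). BNIP3L, a mitophagy receptor, stood at 458, 459, 302 and 222 CPM in late amnion and at 65.5, 25.9, 69.8, 103 and 74.8 CPM in early amnion (log2 change 2.43 ± 0.45, edgeR adjusted p = 0.00341). Late embryos were above all early ones in each of these. ALDOC and PFKP, an aldolase and a phosphofructokinase, averaged 104 ± 17.3 and 126 ± 50.0 CPM in late amnion, against 3.71 ± 5.39 and 4.81 ± 7.56 CPM in early amnion (SD, n = 4 and 5; edgeR adjusted p = 0.00333 and 0.00503). P4HA1, a collagen prolyl hydroxylase, had a log2 change of 2.55 ± 0.53 (edgeR adjusted p = 0.00779), and lost its call without day 16 embryo 3 (0.0665). GAPDH changed by 0.96 ± 0.25 on the log2 scale (edgeR adjusted p = 0.0404). With day 14 embryos alone as the early group, TPI1 kept its call and PGK1 and BNIP3L did not (edgeR adjusted p = 0.0805 and 0.101).

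SLC16A3, the membrane carrier that exports lactate, stood at 91.4, 125, 163 and 244 CPM in late amnion and at 14.6, 8.63, 11.0, 42.9 and 1.94 CPM in early amnion. All late embryos were higher (log2 change 3.57 ± 0.75, edgeR adjusted p = 0.00872). The SLC16A3 call was lost with day 14 embryos alone as the early group, and with each cell weighted alike. The glucose carrier SLC2A1 averaged 2482 ± 1087 CPM in late amnion and 789 ± 629.6 CPM in early amnion, overlapped and did not pass (SD, n = 4 and 5; edgeR adjusted p = 0.105). With CA3 and GABRP, SLC16A3 gave 3 calls among 14 tested transport genes, none lower, at a median log2 change of -0.08. Over all genes tested, 1.88% were called higher. Nuclear genes of oxidative phosphorylation had 0 calls among 30 by edgeR, with 5 at an unadjusted p under 0.05, 0 calls by DESeq2 and a median log2 change of 0.04.

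Signalling genes known from amnion formation showed few calls. None of 20 tested ligands, receptors and targets of BMP signalling was called by edgeR, and their median log2 change was 0.17. At an unadjusted p under 0.05 there was 1, and DESeq2 called 1, MSX1, which was lower. BMP4, the ligand, averaged 272 ± 97.9 CPM in late amnion and 149 ± 114 CPM in early amnion, and its target ID1 426 ± 114 and 381 ± 102 CPM (late and early; SD, n = 4 and 5; edgeR adjusted p = 0.551 and 0.883). SFRP1, a secreted WNT antagonist, was the only call by edgeR among 16 tested WNT and FGF genes, and DESeq2 called FZD7, SFRP1 and WNT3, 2 higher and 1 lower. SFRP1 stood at 178, 77.1, 155 and 655 CPM in late amnion and at 0, 0, 3.67, 0 and 8.74 CPM in early amnion (log2 change 5.97 ± 0.83, edgeR adjusted p = 0.000214). All late embryos were higher, and day 16 epiblast held still more, at 604 ± 211 CPM without TMM scaling (SD, n = 4). By label SFRP1 averaged 43.2 ± 30.5 CPM in L-AM2 cells and 349 ± 340 CPM in L-AM1 cells of the same embryos (SD, n = 4 each), and L-AM2 was the higher in 1 of 4. With L-AM2 alone as the late group SFRP1 had too few counts to be tested. By edgeR no call was made among 8 tested NODAL and TGF-beta genes, with 2 at an unadjusted p under 0.05 and 0 by DESeq2. Intervals of these genes are wide, so an absent call does not show an equal level.

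POU5F1, NANOG and DNMT3B were not called by edgeR. POU5F1 averaged 646 ± 168 CPM in late amnion and 741 ± 319.9 CPM in early amnion, NANOG 53.5 ± 31.9 and 50.6 ± 55.6 CPM, and DNMT3B, a DNA methyltransferase, 486 ± 241 and 370.5 ± 26.4 CPM (late and early; SD, n = 4 and 5; edgeR adjusted p = 0.863, 0.994 and 0.703). Among 13 tested pluripotency genes SFRP1 was the only call by edgeR, and the median was 0.03. DESeq2 called SFRP1, SOX2 and USP44, all higher, and SOX2 had too few counts for the edgeR test. Most cell cycle genes had negative log2 changes without a call by edgeR. Of 20 tested S-phase genes 1 had a positive log2 change (median -0.53), and 3 had an unadjusted p under 0.05 in edgeR, while DESeq2 called 1, UHRF1. Of 21 mitosis genes 3 had a positive log2 change (median -0.95), 7 had an unadjusted p under 0.05 in edgeR, and DESeq2 called 0. Of 9 tested genes of DNA methylation edgeR called 0, with 1 at an unadjusted p under 0.05, and DESeq2 called 2, DNMT3L and UHRF1, both lower. FOS, an immediate early gene on the list of dissociation stress, rose (log2 change 3.03 ± 0.71, edgeR adjusted p = 0.0218) as the only call by edgeR among 11. DESeq2 called FOS, BTG2, FOSB and IER3, 3 higher and 1 lower. The late values of FOS ran from 18.5 to 270.0 CPM and its early ones from 7.34 to 38.8 CPM, and the call ended without day 16 embryo 1 or 2 or day 14 embryo 2 (edgeR adjusted p = 0.0893, 0.12 and 0.0582).

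**Figure D3:**
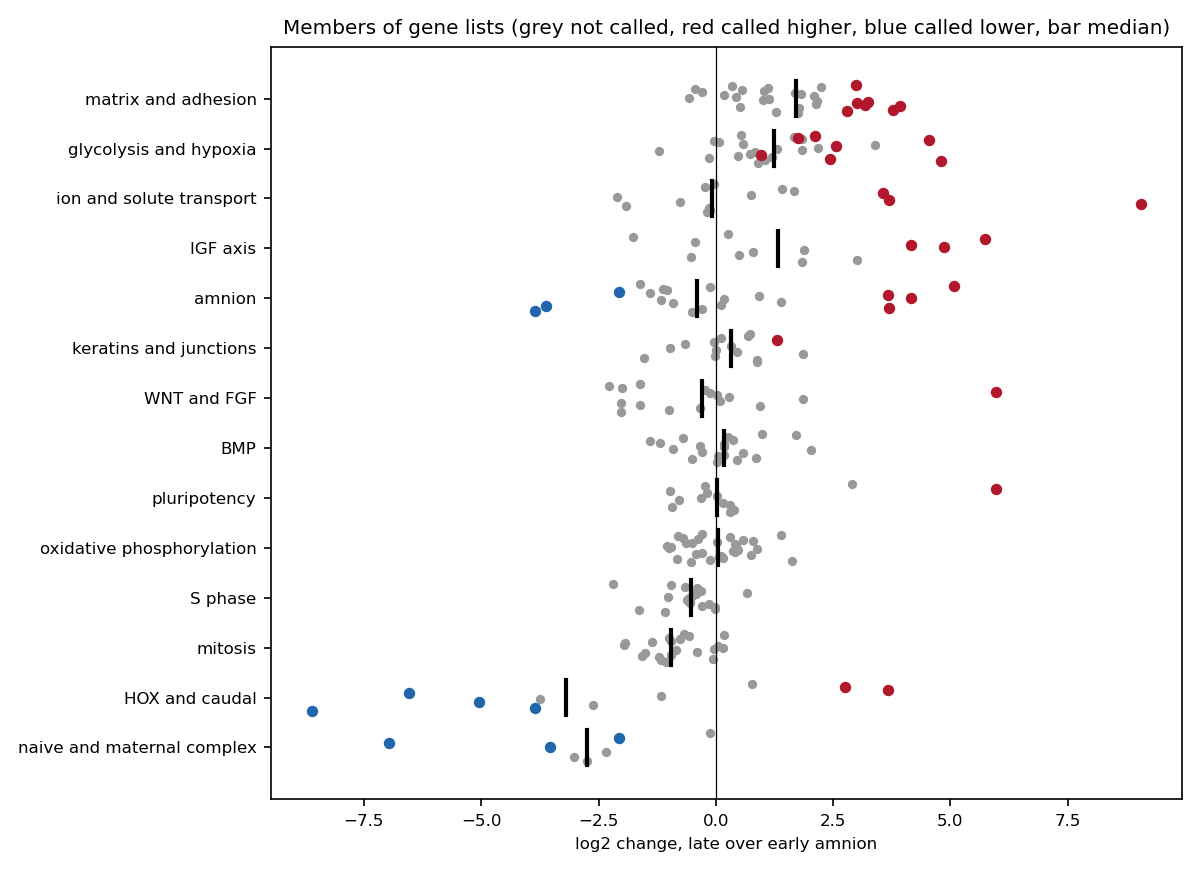
Log2 change of late over early amnion for the tested members of 14 gene lists, with 1 point per gene and a bar at each list's median. Glycolysis and hypoxia, matrix and IGF lists have medians of 1.24, 1.71 and 1.32, and the HOX and caudal and the naive and maternal lists have medians of -3.18 and -2.74, against 0.03 for all genes tested.

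The 2 late labels differed in their genes. Since the annotation was made from these values, the levels of L-AM2 and L-AM1 are a description, with no test, and they come from sums without TMM scaling. The comparison held 24 L-AM2 and 18 L-AM1 cells, at 4 and 8, 9 and 2, 7 and 4, and 4 and 4 cells in day 16 embryos 1 to 4. GABRP stood at 176, 517, 256 and 925 CPM in L-AM2 sums and at 54.4, 0, 4.25 and 0 CPM in L-AM1 sums, beside 25.7 ± 22.8 CPM in early amnion (SD, n = 5). KRT18 averaged 3060.2 ± 335 CPM in L-AM2, 216 ± 201 CPM in L-AM1 and 51.0 ± 18.2 CPM in day 16 epiblast (SD, n = 4 each), and 1962 ± 431 CPM in early amnion (SD, n = 5). Both genes were lower in L-AM1 than in L-AM2 in each day 16 embryo, although GABRP in L-AM1 of day 16 embryo 1 exceeded the early mean.

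Epiblast genes ran the other way. SOX2 averaged 4.11 ± 1.86 CPM in L-AM2, 86.8 ± 52.9 CPM in L-AM1 and 272 ± 219 CPM in day 16 epiblast (SD, n = 4 each), and 4.89 ± 3.56 CPM in early amnion (SD, n = 5). NANOG averaged 1.53 ± 2.00 CPM in L-AM2, 119 ± 82.1 CPM in L-AM1 and 181 ± 100.2 CPM in day 16 epiblast (SD, n = 4 each), and DNMT3B 59.8 ± 34.7, 785 ± 150.3 and 1031 ± 143 CPM in the same order. Summed over 8 epiblast markers, L-AM2 held 659 ± 302 CPM, L-AM1 2330.4 ± 405 CPM and day 16 epiblast 3054 ± 108 CPM (SD, n = 4 each), and early amnion 1430.4 ± 510.0 CPM (SD, n = 5). Over the 24 amnion genes the sums were 4580.0 ± 464 CPM in L-AM2, 1523 ± 395 CPM in L-AM1 and 608 ± 109 CPM in day 16 epiblast (SD, n = 4 each), and 3402 ± 1278 CPM in early amnion (SD, n = 5). In both sums L-AM1 lay between L-AM2 and day 16 epiblast and closer to epiblast, which goes against its amnion label. Means of the other 2 marker genes do not. TFAP2A averaged 186 ± 170 CPM in L-AM2, 91.3 ± 59.0 CPM in L-AM1 and 1.85 ± 1.29 CPM in day 16 epiblast (SD, n = 4 each). ISL1 averaged 170 ± 31.2, 49.5 ± 53.6 and 2.64 ± 2.87 CPM in the same order, with 0 in L-AM1 of day 16 embryo 2. The label is kept here as the deposited annotation gives it.

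**Figure D4:**
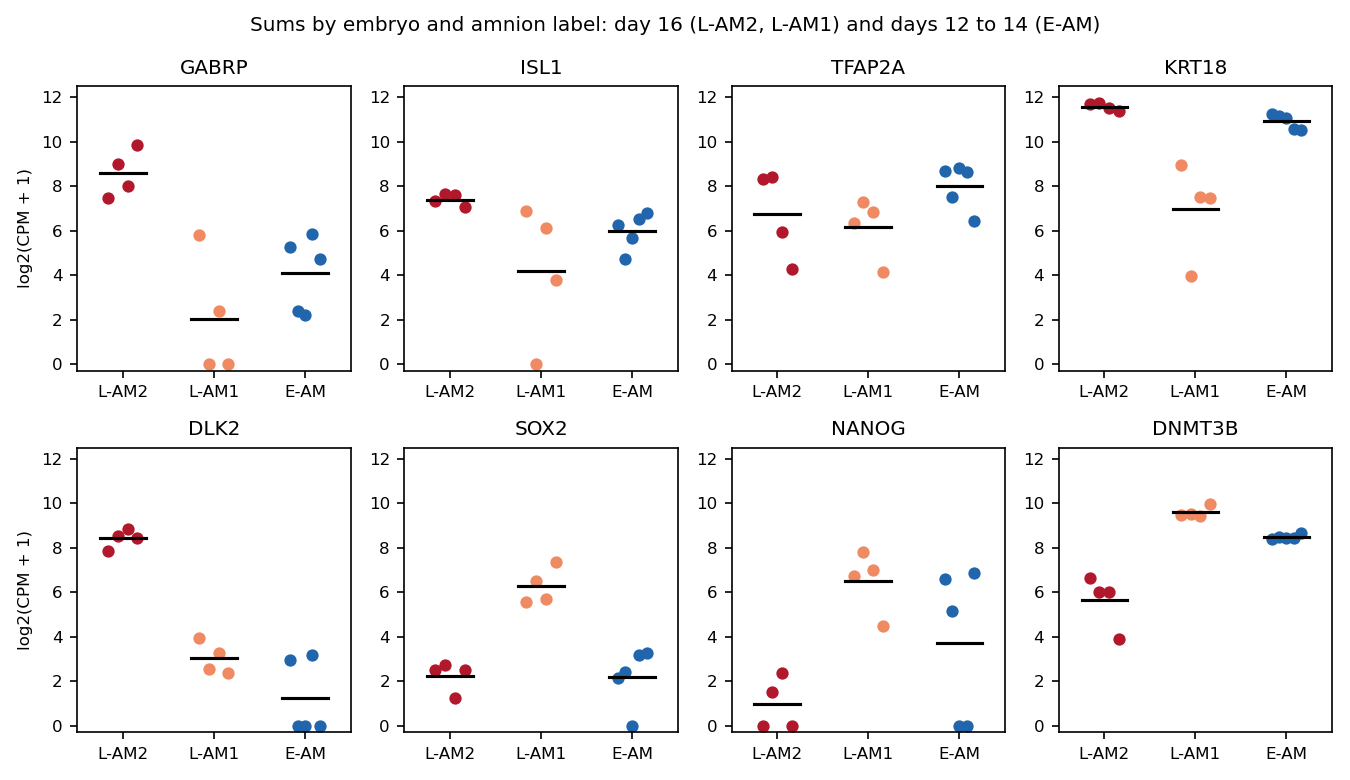
Level of 8 genes per embryo in L-AM2 and L-AM1 cells of day 16 (4 embryos each) and in E-AM cells of days 12 to 14 (5 embryos), as log2(CPM + 1) of sums without TMM scaling; bars are means. GABRP, KRT18 and DLK2 are high in L-AM2 and low in L-AM1, and SOX2, NANOG and DNMT3B are high in L-AM1 and low in L-AM2.

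Each late label was also set alone against early amnion. With L-AM2 as the late group 3.84% of 5332 genes were called (3.0% higher and 0.844% lower), and with L-AM1 1.51% of 5636 (0.887% higher and 0.621% lower). The named genes were chosen on the same early embryos, so nothing is read from these shares. Of the 35 named genes that rose, 28 of 30 tested rose with L-AM2 as the late group, and 13 of 21 tested with L-AM1. Of the 13 named genes that fell, 9 of 10 tested fell with L-AM2 and 11 of 13 with L-AM1. GABRP changed by 4.49 ± 0.70 with L-AM2 (edgeR adjusted p = 0.000382) and by -0.16 ± 1.23 with L-AM1 (edgeR adjusted p = 0.978). KRT19 followed it, with log2 changes of 1.83 ± 0.30 with L-AM2 (edgeR adjusted p = 0.000713) and 0.19 ± 0.36 with L-AM1 (edgeR adjusted p = 0.889). TPI1 was called with either label, at 2.26 ± 0.28 with L-AM2 and 1.80 ± 0.33 with L-AM1 (edgeR adjusted p = 2.87e-05 and 0.00944). These comparisons share the early embryos. COL6A2 and TBX3 were called with neither label, and COL1A2 with L-AM1 alone. COL3A1, VIM, P4HA1, MEIS2, FOS and GATA2 were tested with both labels and called with L-AM2 alone. All of these kept their sign with L-AM1. GATA2 changed by -3.98 ± 1.07 with L-AM1 and by -3.85 ± 1.00 with L-AM2, COL3A1 by 3.25 ± 0.82 and 4.25 ± 0.83, and MEIS2 by 1.49 ± 0.74 and 3.43 ± 0.60. A call with 1 label alone is no test of a difference between the labels.

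The late over early change was also set against that in epiblast and in EXMC of the same embryos, with the embryo as a block. Against epiblast, 22 of 12189 genes differed in their change (0.18%), 21 with a higher change in amnion (0.172%) and 1 with a lower one (0.0082%). This used the 4 late embryos, day 12 embryos 1 and 2 and day 14 embryos 2 and 4, and day 13 embryo 3 was left out for want of epiblast cells. Against EXMC, 39 of 11847 genes differed (0.329%), 21 higher (0.177%) and 18 lower (0.152%), and here day 14 embryo 2 was left out. On simulated data of this design, changes of 3 on the log2 scale were recovered in 27% of genes against epiblast and in 8.5% against EXMC. Only genes of higher mean level were changed there, with a common dispersion, so these shares do not hold for lower or more variable genes. Leaving out an embryo gave 7 to 41 calls against epiblast and 21 to 74 against EXMC. Counts against epiblast moved by over 1.5 times without day 16 embryo 1 (41) or 3 (8), day 12 embryo 2 (14) or day 14 embryo 2 (7). Against EXMC they did so without day 16 embryo 1 (63), 2 (23) or 3 (25), day 12 embryo 1 (21) or 2 (25) or day 13 embryo 3 (74).

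FLT1 and IGFBP3 rose more in amnion than in either other type. FLT1 averaged 210.0 ± 89.5 CPM in late amnion and 3.35 ± 4.58 CPM in early amnion without TMM scaling (SD, n = 4 and 5). In epiblast it averaged 30.9 ± 2.56 CPM late and 21.7 ± 14.1 CPM early (SD, n = 4 and 9), and in EXMC 45.1 ± 39.6 CPM late and 138 ± 95.6 CPM early (SD, n = 4 and 11). The difference in log2 change was 6.30 against epiblast (edgeR adjusted p = 0.0034) and 9.10 against EXMC (edgeR adjusted p = 1.5e-05). For IGFBP3 it was 3.17 against epiblast and 2.92 against EXMC (edgeR adjusted p = 0.012 and 7.5e-07), although EXMC held far more IGFBP3 at either stage, at 4773 ± 1333 CPM late and 2643 ± 1268 CPM early (SD, n = 4 and 11). The IGFBP3 difference against epiblast was not called without day 14 embryo 2 (edgeR adjusted p = 0.0597) or with at least 5 cells per sum (0.247).

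In the keratin and junction list, 4 of 24 tested genes were called with a higher change in amnion than in epiblast, against 0.172% of all genes tested. KRT19 rose more in amnion than in epiblast by 1.38 on the log2 scale (edgeR adjusted p = 0.033), a call lost on leaving out day 16 embryo 2 or 3, day 12 embryo 2 or day 14 embryo 2 or 4 (edgeR adjusted p from 0.0598 to 0.0943) or with at least 5 cells per sum (0.176). KRT18, chosen from the list after its value was seen, differed from epiblast by 2.25 (edgeR adjusted p = 0.018), with 51.0 ± 18.2 CPM in late epiblast and 195 ± 109 CPM in early epiblast (without TMM scaling; SD, n = 4 and 9). Against EXMC, UNC5C and RGS5 rose more in amnion, by 6.30 and 7.89 (edgeR adjusted p = 0.017 and 0.0072), and HOXD3 fell more, by a difference of -6.72 (edgeR adjusted p = 0.017). UNC5C lost this call without day 16 embryo 2 or 3 or day 12 embryo 1 or 2, HOXD3 without day 16 embryo 3 or day 12 embryo 1 or 2, and RGS5 without day 16 embryo 4 (edgeR adjusted p from 0.0559 to 0.131 over these fits).

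Glycolysis genes were higher late in the other types as well. None of 32 tested members of that list differed in change between amnion and epiblast by edgeR, and 5 had an unadjusted p under 0.05. Their median log2 ratio of late over early means was 1.48 in amnion and 1.27 in epiblast. Against EXMC the medians were 1.63 in amnion and 1.69 in EXMC, and BNIP3 and DDIT4, which are known to respond to low oxygen, had a lower change in amnion (differences -2.23 and -2.90, edgeR adjusted p = 6.6e-05 and 0.017). TPI1 averaged 2306 ± 954 CPM in late epiblast and 556 ± 271 CPM in early epiblast (without TMM scaling; SD, n = 4 and 9).

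**Figure D5:**
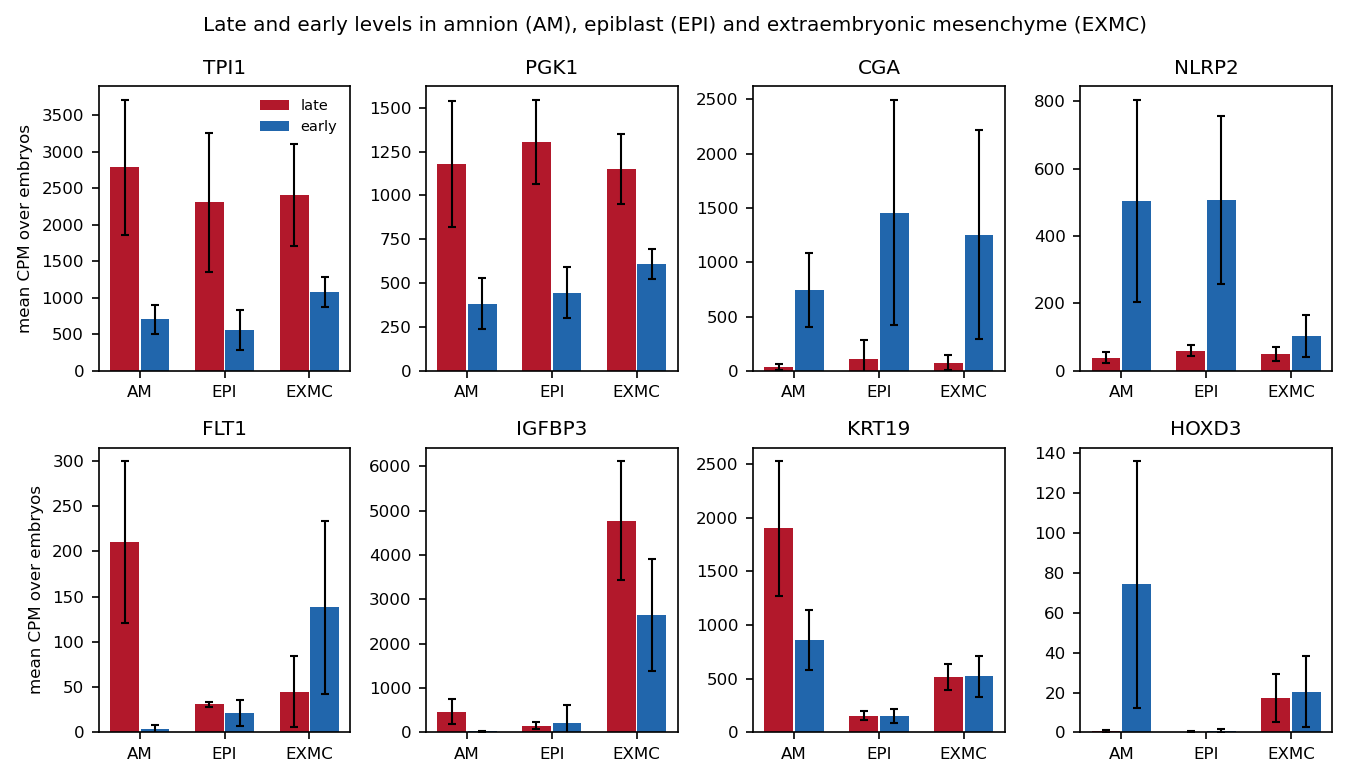
Mean CPM ± SD over embryos, without TMM scaling, of 8 genes in late and early amnion (n = 4 and 5), epiblast (n = 4 and 9) and EXMC (n = 4 and 11). TPI1 and PGK1 are higher late and CGA lower late in all 3 types, and the late level of FLT1 exceeds the early one by far in amnion alone, while in EXMC its early mean is the higher.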

How the data were processed

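RNA of single picked cells was sequenced as 3' barcoded libraries. The authors deposited raw counts of reads per gene and cell with a cell annotation, per the file headers, and STAR is named in the submitters' processing notes. No source used here gives its version, the genome build or the counting program. Of 30792 features, 16890 carried only LOC identifiers, and 3362 of these got a symbol from RefSeq (T2T-MFA8v1.1). Features without a symbol held 7.01% of the counts of the cells compared.

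Counts were summed per embryo for sums of at least 3 cells, filtered with filterByExpr, scaled with TMM and tested with edgeR's quasi-likelihood test (R 4.3.3, edgeR 4.0.16, limma 3.58.1, DESeq2 1.42.0), with Benjamini-Hochberg adjustment over all genes tested and calls at 0.05. TMM factors ran from 0.802 to 1.08. The replicate is the embryo, and groups were unpaired. The change against epiblast or EXMC was an interaction term with embryo as a block. Differences of single values used exact permutation tests over embryos. On simulated counts of this design, 90.9% of 198 changed genes with a log2 change of 3 were recovered in late against early amnion, where 6264 genes were tested. The simulations placed changes only in genes of higher mean level and gave all genes a common dispersion. The sums of an embryo shared no effect in them. Their recovered shares do not hold for genes with lower or more variable counts. No doublet caller was run, since cells were picked singly. Counts are reads after PCR, so intervals cover counting error only.

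The named genes were TFAP2A, ISL1 and GABRP, the 12 largest rises and the 12 largest falls among called genes with a symbol, at least 20 CPM in the higher stage and no overlap between stages, and up to 6 called genes of each list with the smallest p. This gave 50 genes, 48 of them called. The members and the gene lists were chosen with earlier results of these data known. Alternatives were DESeq2, RLE factors, no filter on low counts, other cell minimums, equal weight per cell, other choices of embryos and labels, the replicate number as a block, and leaving out each embryo. Embryos outside the comparison, thinned sums and removal of the deepest cell were added after seeing the data. Levels in other types use the embryos of day 16 and of days 12 to 14 with at least 3 cells of the type. An early embryo among these and outside the amnion comparison, day 13 embryo 1, had 42 features at 0 in all its cells that exceeded 50 CPM in the median of the other embryos, and no named gene was among them.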

Additional observations from a re-analysis of the deposited data

Results flagged for a closer look

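In groups of 4 or 5 embryos the highest or lowest value was set against the others with Dixon's test, which picks out about 1 group in 20 by chance, and 25 of 122 groups were picked out. In late amnion, day 16 embryo 2 stood above the rest in DLK1 (1405 CPM, others at most 405) and COL5A1 (178 CPM). Day 16 embryo 3 did so in P4HA1 (517 CPM), and day 16 embryo 4 in LPCAT2 (167 CPM) and IGFBP2 (624 CPM). The summed germ cell markers were lowest in day 16 embryo 4, at 86.5 CPM. OOEP was detected in day 16 embryo 1 alone among late embryos, at 0.578 CPM.

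In early amnion, several picked-out values are the lone positive embryo of a gene that was otherwise at 0. These were CA3, FLRT3, SPAG4 and ZNF521 in day 12 embryo 2 (4.32 CPM each), UNC5C in day 12 embryo 1 (3.64 CPM) and RGS5 in day 14 embryo 4 (4.86 CPM). LPCAT2 and DCN were highest in day 13 embryo 3 (3.67 CPM each). Day 12 embryo 1 stood above the rest in VTCN1 (47.3 CPM), VIM (113 CPM) and COL6A1 (40.03 CPM). Day 12 embryo 2 did so in CGA (1359.6 CPM), ALDOC (12.9 CPM) and the summed trophoblast markers (1597 CPM). Day 14 embryo 4 did so in CALCB (404 CPM), the summed markers of gastrulating cells (204 CPM), summed counts (1050327) and the median count per cell (274351).

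Some genes changed differently in amnion than in another type of the same embryos, by an edgeR test of the difference in log2 change. Against epiblast the differences were 6.305 for FLT1, 3.17 for IGFBP3 and 1.38 for KRT19. Against EXMC they were 9.10 for FLT1, 7.89 for RGS5, 6.30 for UNC5C, 2.92 for IGFBP3 and -6.72 for HOXD3.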

How the results depend on the processing

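The comparison of late with early amnion gave 153 calls, 127 higher and 26 lower. DESeq2 gave 391, 267 and 124, and no filter on low counts 481, 372 and 109. With at least 5 cells, which kept day 12 embryos 1 and 2 alone as early, there were 87 calls, 59 higher. With each cell weighted alike 52 were lower. With day 14 embryos as the early group there were 84, of which 62 were higher, and with L-AM1 cells alone 85, of which 50 were higher. With L-AM2 cells alone 45 were lower. Without genes 8 times higher in another type there were 97, 83 and 14. Of the alternatives chosen after seeing the data, embryos outside the comparison gave 13, 8 and 5, and thinned sums gave 92, of which 71 were higher. Against epiblast with at least 5 cells there were 4, 2 higher and 2 lower. All called genes kept their sign wherever tested, except with L-AM1 alone (104 of 108) and in embryos outside the comparison (55 of 58). Named genes reversed were GABRP with L-AM1 (-0.16) and TFAP2A in embryos outside the comparison (0.41). The causes were not tested.

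Leaving out an embryo gave 108 to 166 calls, 89 to 132 higher and 17 to 38 lower. Against epiblast there were 7 to 41, 6 to 36 higher and 0 to 5 lower, and against EXMC 21 to 74, 11 to 41 higher and 9 to 41 lower. Log2 differences of marker sums ran from -0.11 to 0.31 (amnion), -0.11 to 0.37 (epiblast), -0.49 to 1.43 (gastrulating), -0.65 to -0.21 (germ), 0.88 to 1.80 (endoderm), 2.00 to 2.71 (mesenchyme), -3.44 to -2.96 (trophoblast) and -0.67 to 0.017 (ectoderm). The difference in median counts per cell ran from -20016 to 43739.6, in genes per cell from -1292 to -265, and at 5000 counts from -298 to -161.

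Embryo numbers did not pair the samples. With the replicate number as a block there were 182 calls, and same-numbered embryos deviated together with correlations of -0.108 to 0.0536, with 1 of 5 early embryos closest to its own number.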

Other observations

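Amnion cells that the rule left out gave a few more values, with no test beyond the one in the preceding section. Day 17 embryos 1, 2 and 3 held 3, 2 and 1 amnion cells, and 7 other early embryos held 10. CA3 stood at 199.6, 0 and 1495 CPM in the day 17 embryos and at 0 in all 7 early ones. FLRT3 stood at 359, 77.0 and 1602 CPM in the day 17 embryos and at 0 in all 7 early ones. DLK2 was at 0 in all of these embryos.

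NTRK2, a neurotrophin receptor, and WLS, which carries WNT proteins to the cell surface, were chosen after their values were seen. NTRK2 changed more in amnion than in epiblast by 7.40 on the log2 scale (edgeR adjusted p = 0.0034), and WLS by 2.30 (edgeR adjusted p = 0.012). Against EXMC, SLC47A1, an efflux carrier, differed by 6.16 (edgeR adjusted p = 0.017).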
